A study of Homo sapiens with 16 samples.

Results

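The apolipoprotein genes examined here were 10 named genes: APOA1, APOA2, APOA4, APOB, APOC1, APOC3, APOD, APOE, APOM and APOL1. They were listed by name, and the list was drawn up with the bulk TNFα result in view, because APOB showed the largest fall there. All 10 are among the 36601 genes of the single-cell matrices. Of the bulk tables, the table of set 1 held 6 (among 20121 genes), that of set 2 held 7 (among 27650) and that of the TNFα set held 8 (among 21093). APOA2 and APOA4 were listed in no bulk table, APOC3 only in the TNFα set, and APOD in set 2 and the TNFα set.

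The RNA came from kidney organoids grown from human pluripotent stem cells, for the bulk libraries from the human embryonic stem cell (hESC) line UM77-2, and the single-cell labels name no line. Bulk set 1 had 1 library each of untreated organoids on days 21, 25 and 29 (D21, D25, D29), and set 2 had 2 libraries per day. The TNFα set had 4 libraries of day 25 organoids, 1 each for vehicle control (VC, the buffer DPBS) and for 5 ng/ml recombinant TNFα, an inflammatory cytokine, at 24 h and 48 h. The single-cell libraries were 1 VC and 1 TNFα library of day 24 organoids after 24 h, made from whole-well cultures, whereas bulk RNA is described as coming from isolated spheroids. The labels do not say that the numbered set 2 samples came from separate cultures, so p-values measure the spread between these samples, which may be technical.

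Apolipoproteins are the protein components of lipoproteins, the particles that carry lipid in body fluids. APOB is the scaffold of the lipoproteins secreted by liver and intestine, onto which the transfer protein MTTP loads lipid. APOA1 is the main protein of high-density lipoprotein and takes up cholesterol exported by ABCA1, APOE is a ligand of lipoprotein receptors, and APOM carries sphingosine-1-phosphate. APOC1 and APOC3 inhibit lipoprotein clearance or lipolysis, APOD belongs to the lipocalins, and APOL1 is an innate immune factor, variants of which are linked to kidney disease. In the kidney, proximal tubule cells take up filtered apolipoproteins through megalin (LRP2), cubilin (CUBN) and its partner amnionless (AMN).

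Positions are those of the GENCODE 44 annotation on GRCh38. APOA1 (ENSG00000118137, chromosome 11, 116835751 to 116837622, minus strand), APOC3 (ENSG00000110245, chromosome 11, 116829706 to 116833072, plus strand) and APOA4 (ENSG00000110244, chromosome 11, 116820700 to 116823304, minus strand) are neighbours. APOE (ENSG00000130203, chromosome 19, 44905791 to 44909393) and APOC1 (ENSG00000130208, chromosome 19, 44914247 to 44919349) form another cluster, both on the plus strand. APOB (ENSG00000084674) spans chromosome 2, 21001429 to 21044073, minus strand. APOM (ENSG00000204444) spans chromosome 6, 31652416 to 31658210, plus strand, and overlaps BAG6 on the other strand. APOL1 (ENSG00000100342) spans chromosome 22, 36253071 to 36267530, plus strand. APOA2 (ENSG00000158874) lies on chromosome 1, 161222292 to 161223631, and APOD (ENSG00000189058) on chromosome 3, 195568705 to 195584033, both on the minus strand. The sources used here do not state whether counting used strand, so reads in the stretch that APOM shares with BAG6 cannot be told apart. APOE and APOC1 both overlap ENSG00000280087 on the same strand, a gene listed in set 2 but not in the other bulk tables.

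Promoter sequences in the RefSeq table (GRCh38.p14, 250 bases before to 50 bases after the start) were matched for 5 of the 10 genes, APOA2, APOA4, APOC1, APOE and APOM, and not for APOA1, APOB, APOC3, APOD or APOL1. APOM and APOE are shown because both were highest in proximal tubule-like cells and lower under TNFα, and APOC1, the neighbour of APOE, because it was neither. The regions are chr6:31655644-31655943 for APOM, chr19:44905546-44905845 for APOE and chr19:44914422-44914721 for APOC1, all on the plus strand, and capitals mark GGTCANGG, which opens with the letters of a nuclear receptor half-site, with N for any base.
APOM: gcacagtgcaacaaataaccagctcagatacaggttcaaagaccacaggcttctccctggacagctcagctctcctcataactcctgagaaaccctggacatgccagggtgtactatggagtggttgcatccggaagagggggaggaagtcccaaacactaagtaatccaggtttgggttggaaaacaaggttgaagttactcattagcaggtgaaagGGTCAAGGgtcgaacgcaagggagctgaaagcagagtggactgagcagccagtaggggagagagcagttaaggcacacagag
APOE: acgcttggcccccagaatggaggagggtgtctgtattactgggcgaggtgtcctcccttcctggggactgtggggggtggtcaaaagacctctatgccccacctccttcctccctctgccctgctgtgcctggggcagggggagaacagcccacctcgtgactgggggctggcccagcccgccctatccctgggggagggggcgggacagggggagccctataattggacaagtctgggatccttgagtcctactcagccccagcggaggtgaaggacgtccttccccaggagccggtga
APOC1: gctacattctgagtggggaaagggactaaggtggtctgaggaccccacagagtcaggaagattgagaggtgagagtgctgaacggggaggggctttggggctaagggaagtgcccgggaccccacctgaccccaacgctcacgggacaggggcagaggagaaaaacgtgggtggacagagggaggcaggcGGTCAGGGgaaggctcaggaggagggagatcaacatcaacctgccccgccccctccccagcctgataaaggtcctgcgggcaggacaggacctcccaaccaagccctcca
The letters GGTCANGG, which were chosen after these sequences were seen, were found on the plus strand at bases -32 to -25 of APOM and -60 to -53 of APOC1, and in 4.56% of all 35116 promoters searched on both strands. The HNF4-type letters CAAAGTCCA (in 0.384% of all promoters), the NF-kB-type letters GGANTTTCC (1.64%) and the TATA letters TATAAA (11.5%) were in none of the 5 windows. Bases are counted from the RefSeq starts. The windows of APOM and APOC1 lie inside the GENCODE spans given above, not around the first bases of those spans. A match describes only the letters in the window.

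APOE was the most abundant of the listed genes in every bulk library and APOA1 was second when reads were scaled to transcript length. Reads scaled to library size (CPM) and to kilobases of GENCODE exon length (CPM per kb) in the 24 h VC library were 272.9 for APOE, 51.2 for APOA1, 5.93 for APOM and 2.23 for APOB. APOC3 was at 0.931, APOC1 at 0.485, APOL1 at 0.431 and APOD at 0.291 CPM per kb in that library. The 48 h VC library kept the order of the 4 highest genes, with 307 for APOE, 59.3 for APOA1, 6.38 for APOM and 1.81 for APOB, and there APOC3 stood at 1.01 CPM per kb.

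To ask how these genes moved with time in culture, the days were compared within each bulk set. APOA1, APOB and APOM were lower and APOL1 higher on D29 than on D21 in set 2, and all 4 moved the same way in set 1. APOE, APOC1 and APOD passed no test between these days. Values are log2(CPM + 1), and fold changes on this scale understate the change of genes with few reads. Tests are limma's moderated test on all 6 set 2 libraries, adjusted by the Benjamini-Hochberg method over 27650 genes and called at an adjusted p under 0.05. How many of all genes separated the days without overlap was not counted, so each separation given below is a description.

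In set 2 the D21 libraries had APOB levels of 5.64 and 3.89, the D25 libraries 5.62 and 5.49, and the D29 libraries 2.38 and 2.46. Both D29 libraries lay below every earlier library, and the second D21 library stood apart from the first. Set 1 gave APOB levels of 3.94 on D21, 4.35 on D25 and 2.52 on D29. APOB thus fell by 2.34 (SE 0.45, n = 2 per day, limma adjusted p = 0.0101) from D21 to D29 in set 2. The fall was 1.47 without the first D21 library and 3.22 without the second, and it was called either way. From D25 to D29 it fell by 3.13 (SE 0.45, n = 2 per day, limma adjusted p = 0.0226), a call lost without the second D29 library (limma adjusted p = 0.0626).

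APOA1 in set 2 stood at 4.42 and 4.16 (D21), 4.48 and 4.82 (D25) and 3.14 and 2.76 (D29). In set 1 it was 3.33 on D21, 3.33 on D25 and 2.41 on D29. The D29 libraries were again the lowest, with no overlap with the earlier days. APOA1 fell by 1.34 (SE 0.17, n = 2 per day, limma adjusted p = 0.00159) from D21 to D29 and by 1.70 (SE 0.17, n = 2 per day, limma adjusted p = 0.0103) from D25 to D29.

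APOM in set 2 stood at 2.61 and 2.54 (D21), 2.23 and 1.52 (D25) and 1.40 and 1.61 (D29), and in set 1 at 1.81, 1.45 and 1.23. The D21 libraries lay above all later ones, while the second D25 library lay within the D29 range. APOM fell by 1.07 from D21 to D29 (SE 0.24, n = 2 per day, limma adjusted p = 0.0178). This call was lost without the first D21 library (limma adjusted p = 0.104), the second D21 library (0.0902) or the first D29 library (0.0574).

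APOL1 moved the other way. In set 2 its levels were 0.61 and 0.39 (D21), 1.64 and 1.37 (D25) and 2.28 and 1.66 (D29), and in set 1 they were 0.76, 1.22 and 1.35. The D21 libraries, which held 11 and 8 reads of the gene, lay below all later ones. APOL1 rose by 1.47 from D21 to D29 (SE 0.22, n = 2 per day, limma adjusted p = 0.00335). It also rose by 1.01 from D21 to D25 (SE 0.22, n = 2 per day, limma adjusted p = 0.0439), a call that was lost without any 1 of the 4 libraries of these days (limma adjusted p from 0.144 to 0.278).

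The APOE level stayed between 7.22 and 8.06 in all 6 set 2 libraries, with 7.53 and 7.22 (D21), 7.73 and 8.06 (D25) and 7.39 and 7.24 (D29). In set 1 it was 6.99, 7.22 and 6.84. The D29 minus D21 difference of APOE was -0.06 (SE 0.13, n = 2 per day, limma adjusted p = 0.814), and D25 exceeded D21 by 0.52 without passing the test (limma adjusted p = 0.0752). APOC1 ranged from 0.97 to 1.52 and APOD from 0.37 to 0.84, with 5 to 17 reads of APOD per library. At this depth no change of APOC1 (difference 0.13, SE 0.19, n = 2 per day, limma adjusted p = 0.722) or APOD (0.16, SE 0.15, n = 2 per day, limma adjusted p = 0.533) was detectable.

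**Figure D1:**
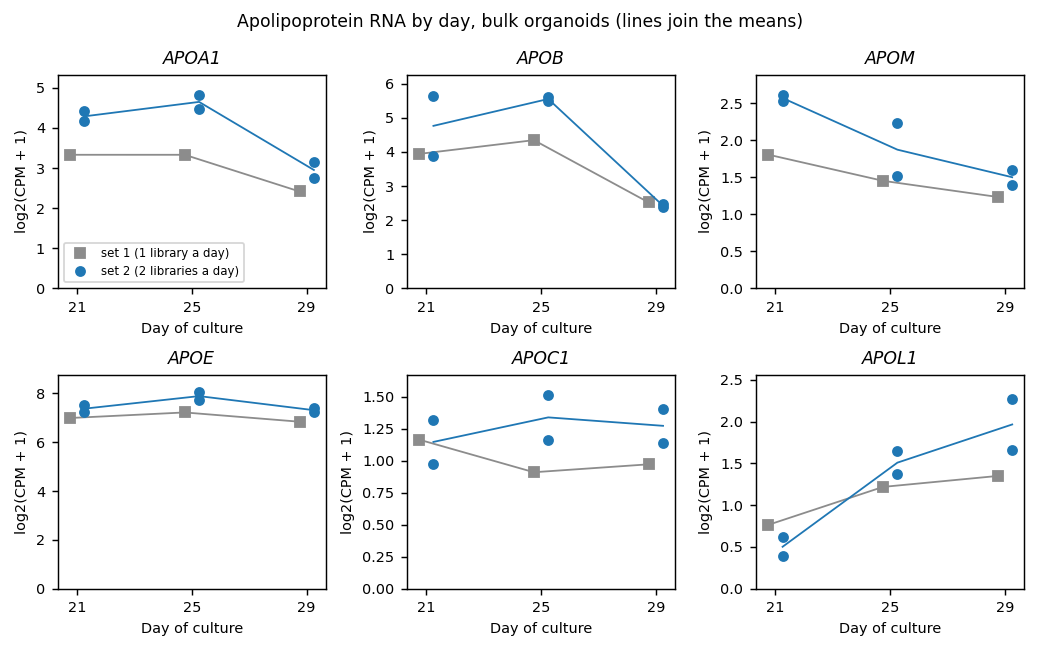
Bulk level, log2(CPM + 1), of 6 apolipoprotein genes against day of culture, with grey squares for set 1 (1 library per day), blue circles for set 2 (2 libraries per day) and lines through the means. APOA1 and APOB are lowest on D29 in both sets, APOM declines and APOL1 rises in both, and the tables were normalised separately, so levels of the sets are not compared.

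Of the 7 listed genes, 1 was called higher and 3 lower on D29 than on D21, against 10.0% and 8.33% of all genes tested. Centring each library on its median turned the split of all called genes from 2778 higher and 2303 lower into 2408 higher and 4667 lower, and left 1 listed gene higher and 3 lower. From D21 to D25, 1 listed gene was called higher and none lower (3.39% and 1.99% of all genes, or 937 and 549 genes, which became 971 and 1281 after median centring). From D25 to D29, none was called higher and 2 lower, against 1.25% and 0.825% of all genes. With the first D25 library left out limma called 0 genes in this comparison, with 3383 at an unadjusted p under 0.05, and with the second left out 0 genes, with 3715. APOB and APOA1 were therefore lost there too (limma adjusted p from 0.0850 to 0.170). In set 1, which allows no test, APOB alone passed a log2 fold change of 1 from D21 to D29, at -1.42, where 3.09% of all genes rose and 1.41% fell by that much.

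Genes of the same pathway were read from 5 lists, and medians are set beside the median of all set 2 genes, -0.02 from D21 to D29. Among the 5 other listed apolipoproteins 3 were called higher and none lower (median 0.51). These were relatives of APOL1: APOL4 (difference 2.19, SE 0.17), APOL6 (1.36, SE 0.18) and APOL3 (0.51, SE 0.13). APOL4 stood at 0.22 and 0.076 (D21), 1.09 and 0.94 (D25) and 2.12 and 2.56 (D29).

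Of 12 genes of lipoprotein assembly and secretion, none rose and 2 fell (median -0.22), namely SOAT2, which esterifies cholesterol, at -0.74 (SE 0.18) and the sorting receptor SORT1 at -0.53 (SE 0.08). MTTP was at 2.48 and 1.68 (D21), 2.56 and 2.47 (D25) and 1.57 and 1.40 (D29), and was not among the called genes. Like APOB, it was lower in the second D21 library than in the first.

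Of 14 lipoprotein receptors and partners, 5 rose and 5 fell (median -0.13). The 3 largest changes were those of SORL1 (-1.82, SE 0.16), the endocytic receptor LRP2 (-1.46, SE 0.14) and the APOE receptor LRP8 (0.99, SE 0.14). Of 10 genes of lipid efflux and lipoprotein remodelling, 4 fell and none rose (median -0.22): hepatic lipase LIPC (-1.23, SE 0.19), the lipase inhibitor ANGPTL4 (-0.90, SE 0.16), the cholesterol exporter ABCA1 (-0.53, SE 0.11) and endothelial lipase LIPG (-0.39, SE 0.09).

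Of 16 transcription factors known to act on lipoprotein genes, 6 fell and none rose (median -0.30). Among those that fell were HNF4A, a regulator of APOA1, APOB and APOC3 in liver, at -1.78 (SE 0.07), ONECUT1 at -0.69 (SE 0.16) and NR5A2 at -0.67 (SE 0.17). HNF4A stood at 6.94 and 6.90 (D21), 6.21 and 6.29 (D25) and 5.15 and 5.13 (D29), with no overlap between days.

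**Figure D2:**
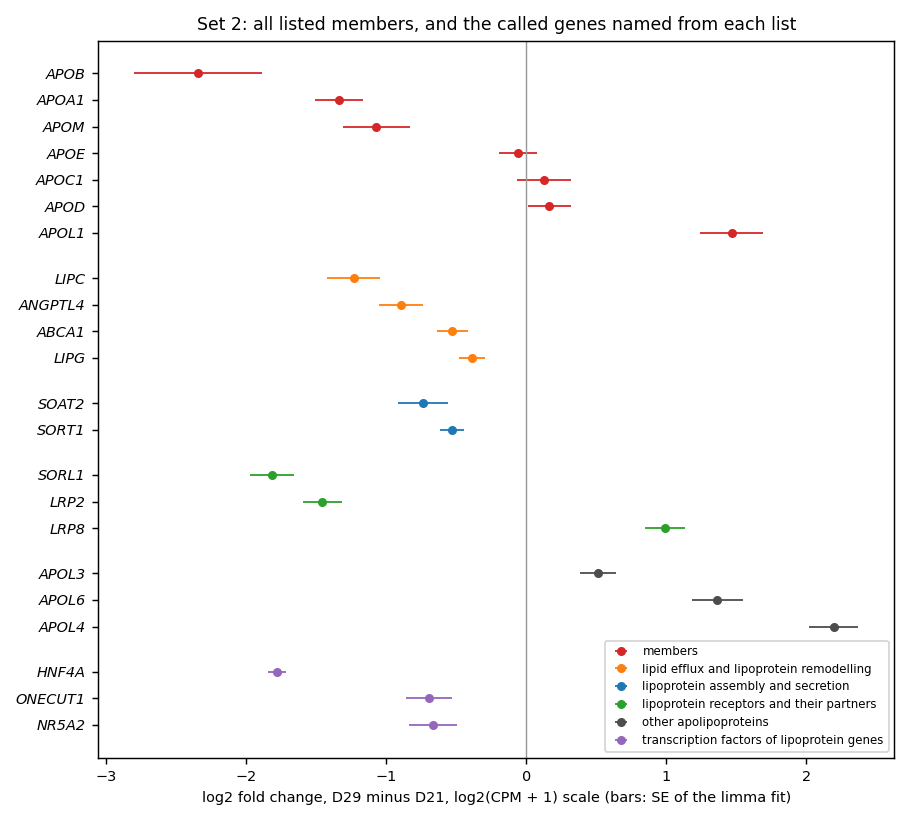
Difference D29 minus D21 in set 2 (log2(CPM + 1) scale, bars are the SE of the limma fit) for the 7 listed apolipoprotein genes and for up to 4 called genes of each pathway list. APOB, APOA1 and APOM lie to the left with HNF4A, SORL1 and LRP2, and APOL1 to the right with APOL4 and APOL6.

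Cell type markers moved over the same days. Of 17 listed proximal tubule markers 10 fell and 1 rose from D21 to D29 (median -0.55), and their summed level was 1293 to 1525 CPM on D21, 1398 to 1410 on D25 and 674 to 858 on D29. Of 9 listed hepatocyte or endoderm markers 1 fell and none rose (median 0.02), and their sum was 127 to 186 CPM on D21, 231 to 243 on D25 and 101.1 to 123.3 on D29, while TTR, FGA and FGG of this list were not listed in the table. In the D21 library with less APOB both sums were the lower of the pair. Of 12 podocyte markers 6 fell, and of 9 stromal markers 7 rose. The part of these shifts in the apolipoprotein levels was not tested, and in bulk samples fewer cells of a type and less RNA per cell cannot be told apart.

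Single cells show which cells of the organoids held the RNA. Cells with over 500 genes were clustered without the listed genes, and clusters were named only from separate markers. The class called proximal tubule-like carried 11 of 18 proximal tubule markers, among them CUBN, LRP2, AMN, HNF4A and SLC34A1. Its summed distal tubule markers were higher than its proximal ones, at 1162 against 817 CPM in the VC library and 792 against 431 CPM under TNFα. The other named classes held 45.5 to 338 CPM of distal markers in VC. Most of the distal sum came from WFDC2 (676 CPM in VC), MAL (301) and POU3F3 (124), while the transporter SLC12A1 had 140 UMIs (5.89 to 8.26 CPM) and UMOD and SLC12A3 had 0 UMIs. The class therefore carried markers of both tubule segments, and its name refers to the larger number of proximal ones. It held 1506 of 11906 cells in the VC library and 3781 of 23160 in the TNFα library. In its naming LRP2, CUBN, AMN and HNF4A were used, so their presence is no result. Levels are the unique molecular identifiers (UMIs) of a gene over all UMIs of a class (CPM), with exact Poisson 95% intervals, which cover counting error only, since each condition has 1 library and allows no test. Ranks are among the named classes.

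In the VC library 5 of the 10 genes had their highest level in proximal tubule-like cells: APOE, APOA1, APOM, APOB and APOC3. For APOE the proximal tubule-like level was 883 CPM (870 to 896), followed by 232 (224 to 240) in stromal-like cells, 3.80 times less (3.66 to 3.95). Neural progenitor or glial-like cells held 146 CPM of APOE, proliferating-like cells 107, muscle-like cells 94.3, podocyte-like cells 74.0 and neuronal-like cells 36.0. Only the intervals of the proliferating-like (99.7 to 116) and muscle-like (83.4 to 106) neighbours overlapped in this order. An APOE UMI was found in 78.2% of proximal tubule-like cells (median 8058.5 UMIs per cell) and in 227 of 1749 neuronal-like cells (median 6372), a class taken here as a background.

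For APOA1 the level was 129 CPM (124 to 134) in proximal tubule-like cells and 54.1 (49.5 to 59.0) in the neural progenitor or glial-like class, a ratio of 2.38 (2.16 to 2.62). The other named classes held 2.63 to 23.5 CPM, lowest in neuronal-like cells. APOM stood at 62.5 CPM (59.1 to 66.1) in proximal tubule-like cells and at 15.1 (10.9 to 20.3) in muscle-like cells, 4.15 times less (3.06 to 5.76). The other named classes held 5.21 to 11.5 CPM of APOM, and the intervals of all neighbours below the proximal tubule-like class overlapped.

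APOB and APOC3 had fewer counts. Of 152 APOB UMIs in the library 135 (88.8%) lay in proximal tubule-like cells, a level of 6.75 CPM (5.66 to 7.99) against 0.352 (0.114 to 0.822) in stromal-like cells. Of the APOC3 UMIs 98 (97.0%) lay there, a level of 4.90 CPM (3.98 to 5.97) against 0.137 (0.0166 to 0.495) from 2 UMIs in podocyte-like cells.

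The other genes were distributed differently. APOC1 was highest among named classes in stromal-like cells at 25.1 CPM (22.5 to 27.8), with 21.6 (18.2 to 25.4) in proliferating-like and 15.8 (14.1 to 17.6) in proximal tubule-like cells, and unnamed cluster 13 stood at 25.8 (21.7 to 30.4). APOD had 59 of its 103 UMIs in neural progenitor or glial-like cells, at 6.22 CPM (4.73 to 8.02), followed among named classes by podocyte-like cells at 1.30 (0.784 to 2.03), while unnamed clusters 9 and 10 stood at 1.44 and 1.41 CPM from 1 and 9 UMIs. In proximal tubule-like cells APOD had 0 UMIs, which leaves a level of up to 0.184 CPM. APOL1 had 5 UMIs in the whole VC library, APOA2 had 1 and APOA4 had 0, so no class could be ranked for them at this depth.

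The cells that held APOB were few, and their pooled levels of several genes differed from those of the other proximal tubule-like cells. An APOB UMI was found in 42 of 1506 proximal tubule-like VC cells (2.79%, against 1 of 1749 neuronal-like cells), and at most 17 APOB UMIs were in 1 cell. These 42 cells were deeper, with a median of 22109.5 UMIs against 7839 in the other 1464 cells, and depth alone raises the chance of seeing a rare gene. An APOA1 UMI was present in 39 of them, an APOE UMI in all 42, an APOC3 UMI in 20 and an MTTP UMI in 17. Their levels were 704 CPM (658 to 752) for APOA1 against 90.2 (86.0 to 94.6) in the other proximal tubule-like cells, 36.8 (27.0 to 49.1) for APOC3 against 2.77 (2.07 to 3.64), 3303 (3203 to 3406) for APOE against 722 (710 to 734), and 220.2 (195 to 248) for APOM against 52.0 (48.8 to 55.4). The level of MTTP was 26.4 CPM (18.2 to 37.1) against 2.13 (1.52 to 2.90), and that of the phosphate transporter SLC34A1, a proximal tubule marker, was 367 CPM (334 to 402) against 23.5 (21.4 to 25.8).

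The same cells were compared with liver markers, because APOB, APOA1 and APOC3 are typical liver transcripts. Proximal tubule-like VC cells held 7 UMIs of albumin (ALB), 0 of the fibrinogen chains FGA and FGG and 1 of TTR. They held 2445 UMIs of AFP, 446 of SERPINA1, 202 of FGB and 930 of the brush border gene VIL1. In the 42 cells with APOB, ALB had 1 UMI and AFP stood at 796 CPM (747 to 847), against 77.4 (73.4 to 81.4) in the other proximal tubule-like cells. The summed level of the 18 proximal tubule markers was 2672 CPM in the 42 cells and 694 in the others, and that of the 12 hepatocyte or endoderm markers 1170 against 140, most of it AFP. Summed distal tubule markers stood at 291 CPM in the 42 cells and 1220 in the others. The cells were chosen by APOB and so differ in depth, and these values carry no test.

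**Figure D3:**
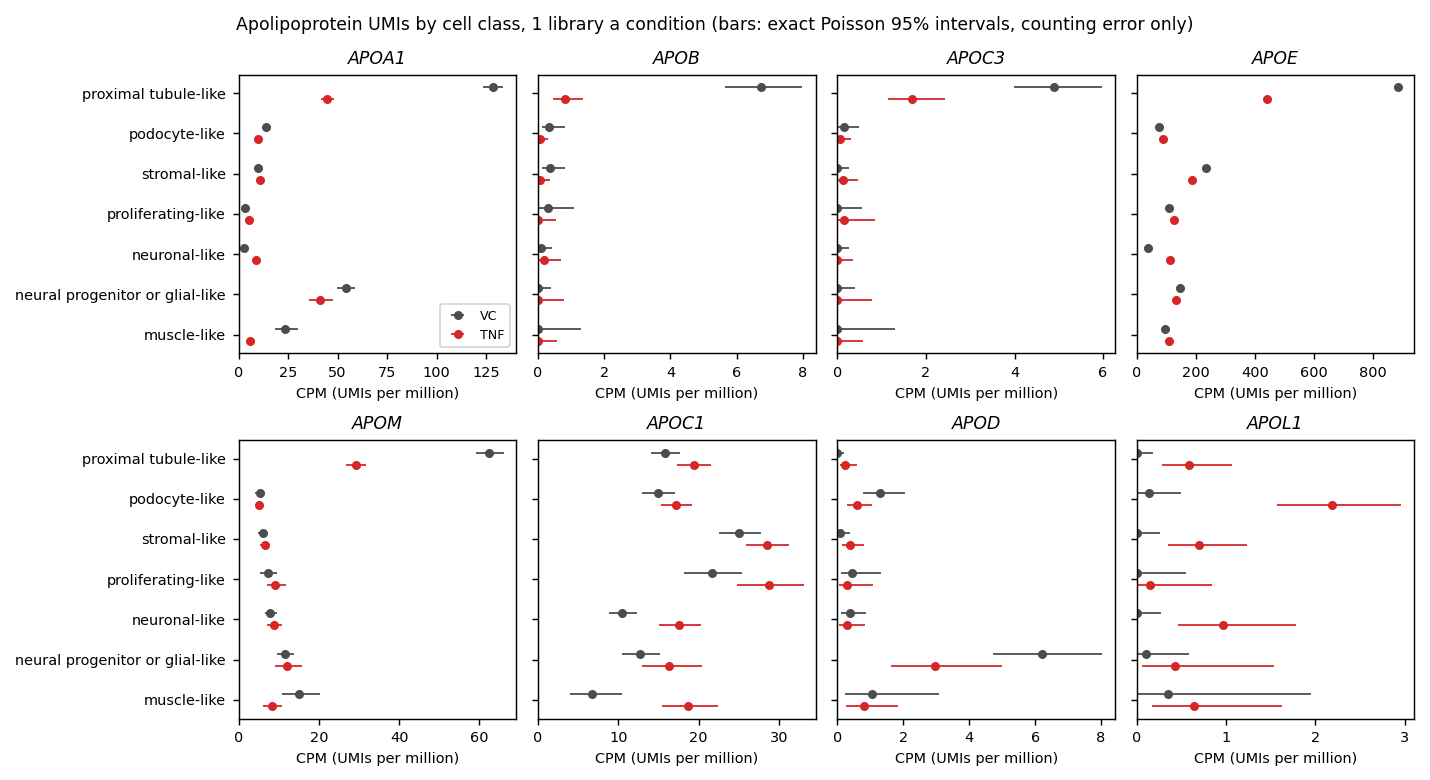
Level of 8 apolipoprotein genes in 7 named cell classes, in CPM of the class (linear axes that differ between genes), in the VC library (grey) and the TNFα library (red), with exact Poisson 95% intervals. APOA1, APOB, APOC3, APOE and APOM have their highest point in proximal tubule-like cells in both libraries, and APOD in neural progenitor or glial-like cells. The red APOL1 point of podocyte-like cells lies above those of all other classes. Under TNFα the highest intervals of APOA1, APOB, APOD and APOL1 overlap those of other classes.

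The TNFα set addresses the response to an inflammatory signal. Its bulk contrast was used to choose the 10 genes, so their values are given as a description without a test. APOB was at 5.09 in the VC and 1.87 in the TNFα library at 24 h, and at 4.80 and 1.59 at 48 h. Its mean difference of -3.21 was the lowest of all 21093 genes, just below HAO2 (-3.05) and FAM151A (-2.80). The reads behind these values were 1792 and 139 at 24 h and 1338 and 119 at 48 h.

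APOA1 was at 5.84 and 3.89 at 24 h and at 6.05 and 3.64 at 48 h, which placed it seventh from the lowest. APOE was at 9.20 and 8.45 at 24 h and at 9.37 and 8.37 at 48 h. APOM was at 3.06 and 2.25, then at 3.15 and 2.35. In all 3 genes both TNFα libraries lay below both VC libraries, and how many of all genes separated this way was not counted. APOC3, known from 10 to 43 reads per library, was at 0.85 and 0.26 at 24 h and at 0.90 and 0.37 at 48 h. APOD was at 0.68 and 0.19 at 24 h but at 0.60 and 0.45 at 48 h.

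APOL1 was the only one of the 8 genes higher at both times, at 1.32 in VC and 2.84 under TNFα at 24 h and at 1.33 and 2.60 at 48 h. APOC1 was at 0.66 and 0.99 at 24 h and at 0.93 and 0.81 at 48 h, so its libraries overlapped. Between the VC libraries of 24 h and 48 h the 8 genes differed by -0.29 (APOB) to 0.27 (APOC1).

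**Figure D4:**
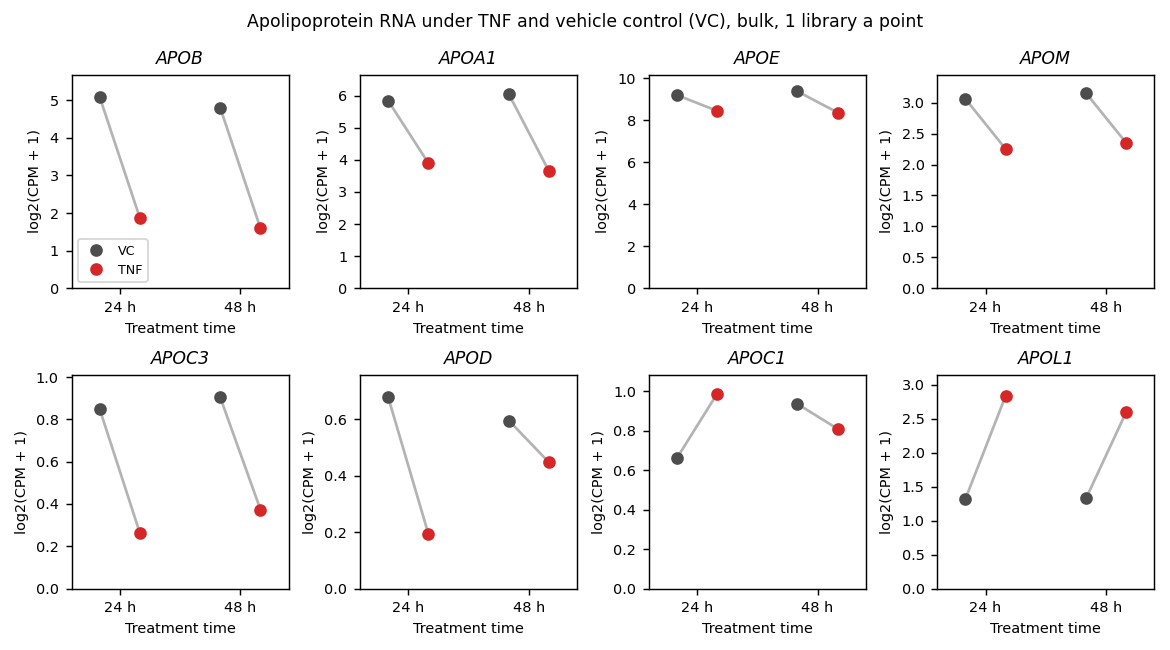
Bulk level, log2(CPM + 1), of the 8 listed apolipoprotein genes in the VC (grey) and TNFα (red) libraries at 24 h and 48 h, 1 library per point. Lines fall steeply for APOB (from 5.09 to 1.87 at 24 h) and APOA1, rise for APOL1, and change direction between the times for APOC1.

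The pathway lists were drawn up with earlier results of these data known, and the genes named from them were picked by their change in this contrast. The lists were read from a limma fit with 1 library per treatment and time, so 24 h and 48 h stand in for replicates. Its calls rest on how far the times agreed, not on spread between cultures. List medians stand beside -0.03 over all genes. Of all genes 8.42% were called higher and 10.8% lower, and the split of 1776 higher and 2285 lower became 1198 higher and 970 lower with DESeq2. Of 12 assembly genes 1 rose and 4 fell (median -0.17). MTTP was at 3.17 and 1.64 at 24 h and at 3.06 and 1.68 at 48 h, and CIDEB, a lipid droplet protein, differed by -1.20 and -0.99. DGAT2, which makes triglyceride, was the gene that rose, by 0.68 and 0.85, and SORT1 differed by -0.39 and -0.30. Of 14 receptors and partners 3 rose and 5 fell (median -0.03), with LRP8 at 0.56 and 0.64, CUBN at -1.27 and -0.91 and AMN at -0.96 and -1.01 at 24 h and 48 h.

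Among 5 other apolipoproteins 2 rose and none fell (median 0.11), namely APOL6 by 1.20 and 1.30 and APOL3 by 0.87 and 0.74, while APOL4 differed by 0.14 and 0.07 and APOL2 by -0.05 and -0.10 without a call. Of 10 efflux and remodelling genes 2 fell and none rose (median -0.10), the phospholipid transfer protein PLTP by 0.52 and 0.65 and ANGPTL4 by 0.52 and 0.59, while ABCG1 (-0.31 and -0.05) and ANGPTL8 (-0.21 and -0.11) were not called. Of 16 transcription factors 9 fell and none rose (median -0.33). HNF4A fell by 1.26 and 0.95, HNF4G by 1.06 and 0.68, and the bile acid receptor NR1H4 by 0.81 and 0.55.

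All 8 genes of a TNFα response list rose. Some marker lists fell together with most of the apolipoproteins here too, and others did not. Of 17 listed proximal tubule markers 16 fell and 1 rose (median -0.99), and their sum went from 1617 CPM in VC to 770 under TNFα at 24 h and from 1635 to 841 at 48 h. Of 7 listed hepatocyte or endoderm markers 1 rose and 4 fell (median -0.37), and their sum went from 558 to 242 and from 571 to 238 CPM. All 12 podocyte markers fell. The summed distal tubule markers went from 412 to 347 CPM at 24 h and from 420 to 409 at 48 h. Summed stromal markers went from 5291 to 6532 and from 6596 to 6865 CPM. Nephron progenitor or early nephron markers went from 802 to 1000 and from 865 to 1221 CPM. The part of these shifts in the bulk apolipoprotein values was not tested.

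The single-cell pair gives the change in the pooled UMIs of a class. In proximal tubule-like cells APOB went from 6.75 CPM (135 UMIs) in VC to 0.814 (0.445 to 1.37, 14 UMIs) under TNFα, a ratio of 0.121 (exact 95% interval 0.0642 to 0.210). APOA1 went from 129 to 44.8 CPM (ratio 0.349, 0.322 to 0.378), and APOC3 from 4.90 to 1.69 (0.344, 0.219 to 0.526). APOM went from 62.5 to 29.1 CPM (0.466, 0.419 to 0.517) and APOE from 883 to 441 (0.499, 0.486 to 0.513). These 5 genes were picked as highest in this class in the same VC library, so their shared direction is only a description. The share of all genes lower in the TNFα library was not counted. The largest factor was that of APOB, the gene with the largest fall in bulk. An APOB UMI was found in 42 of 1506 VC and 10 of 3781 TNFα cells of the class. Pooled over those cells only, APOB stood at 108 CPM (90.6 to 128) in VC and 82.0 (44.8 to 138) under TNFα. Whether fewer cells held APOB or each cell held less was not tested. The intervals treat UMIs as independent, although 1 VC cell held 17 of APOB. With 14 UMIs left, APOB under TNFα was 4.21 times its level in neuronal-like cells, with an interval that held 1 (0.967 to 38.2), and unnamed cluster 13 stood at 2.11 CPM (0.684 to 4.92) from 5 UMIs. APOC1 went from 15.8 to 19.4 CPM (1.23, 1.05 to 1.43).

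The class held 12.6% of cells and 19.9% of UMIs in the VC library and 16.3% of cells and 18.9% of UMIs in the TNFα library. Its cells were shallower under TNFα, with a median of 2687 UMIs against 8058.5. Its summed proximal tubule markers went from 817 to 431 CPM, its distal tubule markers from 1162 to 792, its podocyte markers from 314 to 716 and its stromal markers from 288 to 792 CPM, and the part of these shifts in the ratios was not tested. Without the alignment of the libraries before clustering, 15727 of the 23160 TNFα cells and 754 VC cells fell into 1 unnamed cluster, and the class held 1079 VC and 769 TNFα cells. The comparison within the class thus rests on the alignment, and without it the ratios were 0.192 for APOB, 0.453 for APOA1, 0.475 for APOC3, 0.638 for APOE and 0.645 for APOM. Over all cells, with no classes, they were 0.189 for APOB, 0.479 for APOA1, 0.372 for APOC3, 0.603 for APOM and 0.6998 for APOE.

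Other genes of the pathway moved unequally in the same cells. MTTP had a ratio of 0.271 (0.150 to 0.464), CIDEB of 0.453 (0.379 to 0.540) and HNF4G of 0.381 (0.296 to 0.486). The uptake receptors CUBN (0.536, 0.488 to 0.588), AMN (0.539, 0.505 to 0.575) and LRP2 (0.753, 0.691 to 0.821) were lower, as were HNF4A (0.672, 0.582 to 0.774) and NR1H4 (0.484, 0.355 to 0.651). The intervals of DGAT2 (1.16, 0.817 to 1.66) and SORT1 (0.984, 0.825 to 1.17) held 1. LRP8 (2.11, 1.29 to 3.51), SORL1 (1.86, 1.54 to 2.25) and APOL6 (5.29, 2.72 to 11.3) were higher. PLTP was at 1.21 (1.14 to 1.29) here, whereas it was lower under TNFα in bulk. Of the other list genes, SOAT2 had the lowest assembly ratio, 0.194 (0.0587 to 0.505, from 30 and 5 UMIs), and ABCA1 (2.02, 1.54 to 2.68) was higher, both genes chosen after their values were seen.

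**Figure D5:**
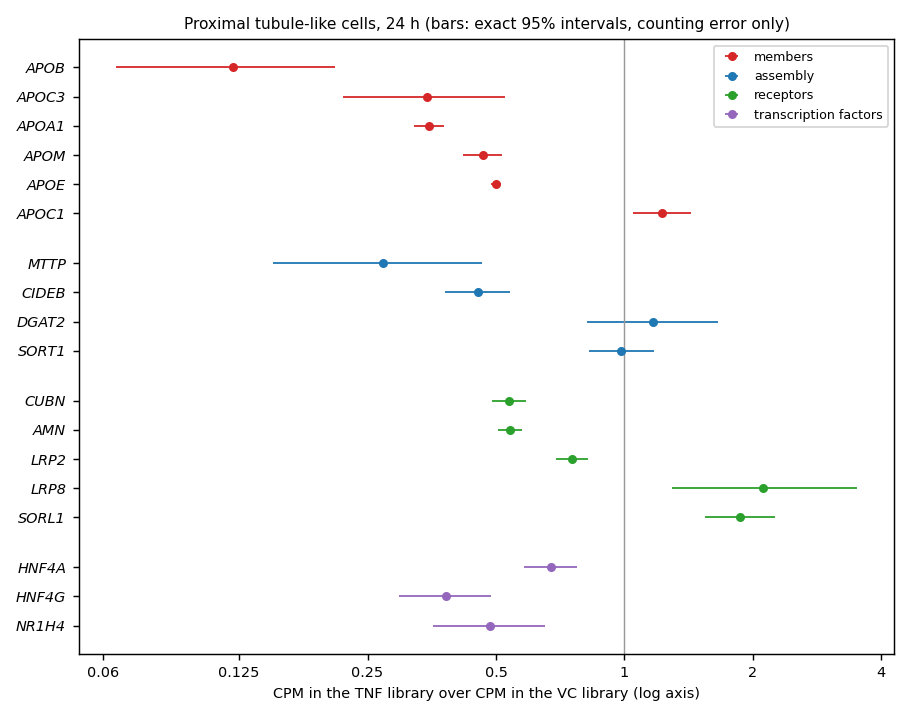
Ratio of CPM in the TNFα library to CPM in the VC library within proximal tubule-like cells after 24 h, on a log axis, with exact 95% intervals for counting error, for 6 apolipoprotein genes and 12 genes of the pathway lists. APOB lies farthest left at 0.121, and MTTP is the lowest of the 4 assembly genes shown at 0.271. APOC1, LRP8 and SORL1 lie right of 1 with their whole intervals, and DGAT2 lies right of 1 with an interval that holds 1.

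APOL1 had the largest ratio of the listed genes over all cells, the proximal tubule-like ones (0 and 10 UMIs of APOL1) included. It had 5 UMIs in the whole VC library and 84 in the TNFα library, a ratio of 18.5 (7.64 to 58.6). Of these, podocyte-like cells held 2 UMIs (0.137 CPM) in VC and 41 (2.18 CPM, 1.57 to 2.96) under TNFα, a ratio of 15.9 (4.13 to 136). Without the cells in the highest 10% of doublet scores the VC and TNFα libraries held 1 and 73 UMIs, a ratio of 75.7 (13.2 to 3029). Podocyte-like cells then held 0 and 36 UMIs, which gives no ratio. The next named class under TNFα was the neuronal-like at 0.967 CPM (0.464 to 1.78) from 10 UMIs.

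APOE and APOA1 were higher under TNFα in neuronal-like cells, from 36.0 to 113 CPM and from 2.63 to 8.80 CPM, opposite to the proximal tubule-like cells. Cluster 6 held most of the neuronal-like cells in VC and cluster 4 under TNFα. Summed podocyte markers went from 310 to 862 CPM in the same cells, a sum that was not split by gene. Free RNA as a part of the APOE and APOA1 values was not tested. APOE was also higher in podocyte-like (ratio 1.19, 1.11 to 1.29), proliferating-like (1.18, 1.06 to 1.30) and muscle-like cells (1.17, 1.01 to 1.35). Its ratio was below 1 in stromal-like (0.806, 0.767 to 0.847) and neural progenitor or glial-like cells (0.904, 0.821 to 0.994). APOA1 was also lower in muscle-like cells, from 23.5 to 5.86 CPM (ratio interval 0.162 to 0.378). In podocyte-like cells its ratio was 0.703 (0.573 to 0.863), but 1.04 without the highest 10% of doublet scores. APOA1 intervals in stromal-like and proliferating-like cells held 1. APOM was lower in muscle-like cells (0.547, 0.358 to 0.839) and unnamed cluster 11 (15.2 to 7.75 CPM). Its intervals in the remaining named classes, the proximal tubule-like one aside, held 1. APOA1 of the neural progenitor or glial-like class stood at 54.1 CPM in VC and 41.2 (35.6 to 47.4) under TNFα, so that in the TNFα library its level there and in proximal tubule-like cells (44.8, 41.7 to 48.1) differed by less than counting error (ratio 1.09, 0.929 to 1.28).

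Across the 13 bulk libraries, each table centred on its own mean, the genes whose log2 values were most like each apolipoprotein were named by Pearson's r over 16240 genes. The libraries share days and treatments, and they include the TNFα libraries whose contrast was used to choose the members, so these values are a description. For APOB the nearest genes were GIPC2 (0.975), AGT (0.970), AGXT2 (0.968), MTTP (0.960) and APOA1 (0.960). For APOA1 they were BPHL (0.978), TCTA (0.976), AGMAT (0.974), AGXT2 (0.973) and VIL1 (0.970). AGXT2 stood in both lists.

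For APOE they were CDHR5 (0.974), IYD (0.971), SLC5A12 (0.965), SLC39A4 (0.957) and AFP (0.953), and for APOM SBNO1-AS1 (0.965), HEBP2 (0.949), APELA (0.945), GSTM4 (0.932) and ANGPTL4 (0.929). For APOL1 they were CXCL14 (0.964), PTBP3 (0.963), FSTL1 (0.963), DDX60 (0.958) and APOL6 (0.957). For APOC1, over 16241 genes, they were SLC25A51 (0.930), RPS13P2 (0.859), RTRAF (0.804), ENSG00000267787 (0.797) and GTF3A (0.796). Between members, r was 0.960 for APOA1 with APOB and 0.883 for APOA1 with APOE, and negative for APOL1 with APOM (-0.888) and with APOA1 (-0.737).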

How the data were processed

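For the bulk log2 values, the authors aligned paired-end reads to GRCh38 with STAR 2.7.8a, counted reads per gene with HTSeq and normalised with voom, and deposited log2(CPM + 1), in which CPM was taken after adding 0.5 reads per gene. HTSeq is 0.11 in the submitters' notes and another version in the methods. Whole reads were recovered for 100% of values (within 0.1 reads), with totals from 19073609 to 59246286 reads, so 1 CPM rests on 19.1 reads or more. The single-cell UMI counts were made with Cell Ranger by the authors, in a version that the notes and the file header give differently, and deposited as filtered matrices, with 100623461 UMIs in the VC and 91152175 in the TNFα library after cells with 500 genes or fewer were left out. A further single-cell library, of untreated organoids, was not analysed here. VC and TNFα shared 82 barcodes.

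limma 3.58.1 under R 4.3.3 was fitted to all genes of a table (set 2: 1 mean per day; TNFα: time and treatment, 1 library each). edgeR 4.0.16 and DESeq2 1.42.0 on recovered reads were alternatives. Cells were scaled to 10000 UMIs, 3454 variable genes without the listed genes gave 30 components, which were aligned with a Harmony algorithm, and a graph of 20 neighbours was partitioned by leidenalg 0.10.2 (resolution 0.25). A class needed at least 3 markers at 20 CPM or more with a log2 fold of at least 1. Scrublet in scanpy 1.11.5 marked 0 cells at its automatic limit and so had not worked, and no doublets were removed. Leaving out the highest 10% of scores, or the shared barcodes, choices made after the data were seen, kept the same 5 genes highest in proximal tubule-like cells. All 10 members are named, with the 4 largest changes of each pathway list and the 5 genes most like each member, except genes that are not reported here. The members, lists and tests were chosen with earlier results of these data known. On simulated set 2 data with 200 changed genes limma called 178 of them and 1 of the unchanged among 27650 genes. Every simulated gene had the same set dispersion between samples. This recovery therefore does not carry over to genes with a wider spread, such as APOB on D21. Over all genes, read counts of the 2 libraries of a day differed most on D29. The chi-square per degree of freedom was 17.6 there, 5.05 on D21 and 4.93 on D25, while the limma fit shared 1 estimate of spread over the days.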

Additional observations from a re-analysis of the deposited data

Results flagged for a closer look

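APOC1, an inhibitor of lipoprotein clearance, was higher under TNFα than in VC at 24 h, by 0.33 on the log2(CPM + 1) scale, and lower at 48 h, by -0.13. It was singled out because the single libraries of the 2 times moved in opposite directions. The difference between the times was not tested, since each treatment has 1 library per time, and the values rest on 31 to 51 reads of APOC1 per library.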

How the results depend on the processing

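For single cells the alternatives kept 5 members highest, among named classes, in proximal tubule-like cells. Removal of called doublets was not run, since none was called. For bulk the alternatives were edgeR and DESeq2 on recovered reads, a mean log2 value of at least 1, median centring, no added 1, no trend, the replicate block, each set 2 library left out, and 1 time alone for TNFα. From D21 to D29, 4 genes were called in every alternative except when a library was left out, which gave 3 to 4. From D21 to D25, the count of 1 became 2 with DESeq2, 2 with edgeR, 2 with the filter on the mean, 2 with no added 1, 0 with no trend, and 0 to 1 with a library left out. From D25 to D29, 2 became 1 with no trend and 0 to 3 with a library left out: 0 without either D25 library, 1 without the second D29 library and 3 without the first. Counted by gene and setting, 6 calls were lost and 6 gained in this comparison. Some of the gains came in settings not named here. In set 1, 1 gene past the fold became 3 with no added 1 (over all genes 621 higher and 283 lower became 1045 and 538). Under TNFα, 24 h alone gave 3 listed genes past a log2 fold change of 1, beside 270 higher and 154 lower among all 21093 genes. With 48 h alone the count was 4, beside 225 higher and 159 lower. The TNFα contrast was used to choose the members, so these counts are a description. The causes were not tested.

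With a library left out, APOE from D21 to D29 ranged from -0.22 to 0.093, APOC1 from -0.049 to 0.30, APOB from D21 to D25 from -0.090 to 1.67 and APOD from -0.017 to 0.45, and from D25 to D29 APOC1 ranged from -0.24 to 0.11 and APOD from -0.29 to 0.18. None of these 6 was called with all libraries, and APOB from D21 to D25 was called (adjusted p = 0.00452 by limma) without the first D21 library. Counted by gene and setting, 83 of 90 values from D21 to D29 kept direction and call.

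Over all genes, 5081 calls from D21 to D29 became 2358 to 5417 with a library left out, 1486 from D21 to D25 became 241 to 2231 and 2252 with median centring, and 574 from D25 to D29 became 0 to 2014, with 1336 by edgeR, 1278 by DESeq2, 1233 with median centring, 1122 with the filter and 209 with no trend. The 4061 TNFα calls became 2168 with DESeq2. Sample numbers of set 2 are shared by the days, but same-numbered deviations had correlations of 0.143, 0.0753 and 0.270, so the numbers were not taken to pair the samples. With the replicate block the members called remained 4, 1 and 2 in number, and calls over all genes were 6056, 2091 and 1118.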
